A study of Mus musculus with 6 samples.

Results

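The peroxiredoxins Prdx1, Prdx2, Prdx3, Prdx4, Prdx5 and Prdx6 and the sulfiredoxin Srxn1 were examined as mRNAs in mouse cells that differed in nuclear redox state. The 7 genes were taken by symbol, 1 row each, from a table of 31265 genes, and all 7 were among the 12191 genes whose mean reached 1 FPKM, a level per length of transcript (kilobase) and per library size. The oxidized group (D5_ox) held the 10% most oxidized cells and the reduced group (D5_red) the 10% most reduced cells of day 5 embryoid bodies, each sorted from 3 populations named A, B and C, which gave 3 libraries per group. Both groups were wild-type E14Tg2a embryonic stem cells that expressed the sensor Grx1-roGFP2 in the nucleus, that had left 2i and LIF to differentiate in serum, and that had passed a propidium iodide gate for live cells. Cells were selected by the sensor's ratio of violet to blue excitation, so the groups are the ends of one distribution and no unsorted cells are compared. The cells are called clonal in the series' design text, and what set the 3 populations apart is not described there. The p-values below therefore reflect how much these populations varied, which may be technical.

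Peroxiredoxins are thiol peroxidases that reduce hydrogen peroxide with a cysteine. In Prdx1, Prdx2, Prdx3 and Prdx4, the typical 2-Cys members, the oxidized cysteine forms a disulfide that thioredoxin reduces, and when peroxide is high the cysteine can be overoxidized to sulfinic acid, which sulfiredoxin repairs. Prdx5 is an atypical member, and Prdx6 has 1 catalytic cysteine and is recycled with glutathione. Prdx1 and Prdx2 are mainly cytosolic, Prdx3 is mitochondrial, Prdx4 is in the endoplasmic reticulum, and Prdx5 is found in mitochondria, peroxisomes and cytosol. Srxn1 is a known target of the oxidant-responsive factor NRF2 and of AP-1.

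Of the 7 genes, 1 had groups that did not overlap, Srxn1, on the lower side. Of all tested genes 8.81% were lower and 16.2% higher without overlap, so a count of 1 in 7 is near that background. Srxn1 was lower in the oxidized library of every population, and its mean was 7.78 FPKM in oxidized cells and 11.9 FPKM in reduced cells. Prdx2 was higher and Prdx5 lower in the oxidized library of all 3 populations, with groups that overlapped. Prdx1, Prdx3, Prdx4 and Prdx6 differed in direction between populations. None of the 7 differences passed the adjusted threshold in limma, although Srxn1 had a q-value under it in the authors' deposited table.

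**Figure D1:**
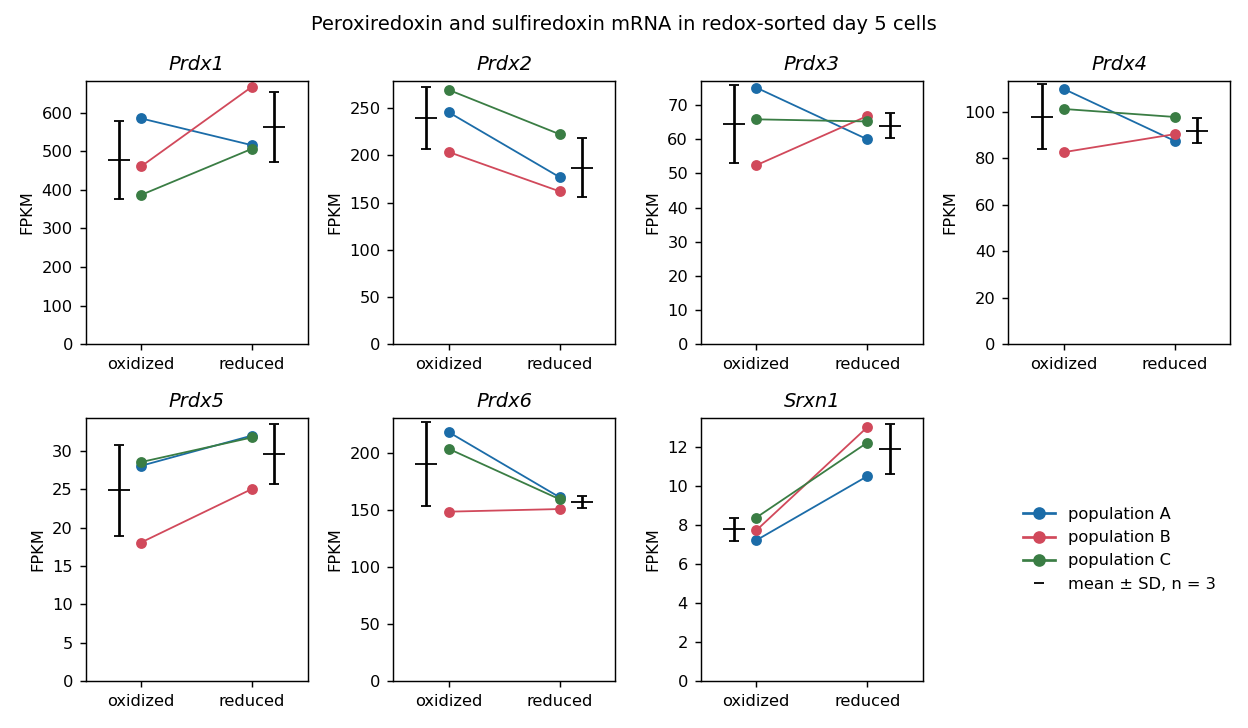
FPKM of each gene (vertical axes, linear, from 0) in the oxidized and reduced libraries, with lines joining the libraries of 1 population and bars for the mean ± SD of 3 libraries. The 3 oxidized values of Srxn1, 7.23 to 8.39 FPKM, lie below the 3 reduced values, 10.5 to 13.0 FPKM, and the lines of the peroxiredoxins overlap between groups.

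The oxidized libraries of A and B stood apart on features outside these genes. A ribosomal RNA locus was at 1410 and 1736 FPKM in them, and at 43825 FPKM in oxidized C and 34116 to 36593 FPKM in the reduced libraries. On the first principal component, which held 42.9% of the variance, the scores were -30.8 and -34.8 for these libraries, -0.45 for oxidized C, and between 15.2 and 28.5 for all reduced ones. The 13 mitochondrially encoded mRNAs summed to 7348 and 5160 FPKM there, and to 2994 FPKM in oxidized C and 2324 to 3917 FPKM in the reduced libraries. The depth, a rough estimate from the steps of low values, was 1.19e+07 to 1.60e+07 fragments in oxidized and 1.26e+07 to 1.80e+07 in reduced libraries. At that depth the value of Srxn1, the least abundant of the 7, rests on an estimated 281 to 628 fragments per library and that of Prdx1 on 10549 to 26228, estimates that take the longest listed transcript as the length. The 6 pluripotent cell markers were detected in all libraries, and none of the markers of any list was at 0 throughout. In bulk libraries, fewer cells of a type and less RNA per cell cannot be told apart.

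Srxn1 encodes the ATP-dependent reductase that returns overoxidized typical 2-Cys peroxiredoxins to service (ENSMUSG00000032802, mm10, chr2:152105516-152111376, plus strand, a protein-coding gene with 2 exons). Its mRNA was at 7.23, 7.73 and 8.39 FPKM in the oxidized libraries of A, B and C, and at 10.5, 13.0 and 12.2 FPKM in their reduced libraries. The highest oxidized value was below the lowest reduced value. The group means were 7.78 ± 0.584 FPKM in oxidized cells and 11.9 ± 1.29 FPKM in reduced cells (SD, n = 3 each). The log2 difference, given as oxidized minus reduced after 1 FPKM was added to each value, was -0.56 (SE 0.15, 95% interval -0.91 to -0.20, not adjusted). This corresponds to 0.680 times the reduced level, with an unadjusted p of 0.00623 and an adjusted p of 0.125 by limma. Within populations A, B and C the differences were -0.49, -0.68 and -0.50. In the fit that blocks on population the adjusted p was 0.165. Without oxidized A and B the difference was -0.46 (adjusted p = 0.445), with oxidized C the lone library of its group.

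The authors' deposited table gives Srxn1 a fold of 0.652, a p-value of 8.06e-04 and a q-value of 0.0335, from a test that the file headers do not name. There, 864 of the 31265 genes, or 2.76%, had a q-value under 0.05, and 1 of the 7 genes was among them. The authors' deposited table marks Srxn1 as not significant, and the smallest absolute log2 fold among the 605 genes it marks as significant is 1.00. The other 6 genes had q-values of 0.579 to 0.999 in the authors' deposited table. The deposited test and limma thus placed Srxn1 on different sides of the threshold.

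The sequences upstream of Srxn1 and Prdx1 are shown because they were the 2 of 6 members with a RefSeq promoter entry (Prdx6 has none) whose 250 bases before the RefSeq start held any of the motifs searched. These were the antioxidant response element core, bound by NRF2 with small MAF proteins, as TGACNNNGC, and the AP-1 site, as TGANTCA, on both strands. The form TGAGNNNGC of the core was added after the sequences were seen. The bases come from RefSeq on GRCm38.p6, stop before the earliest GENCODE start, run 5′ to 3′ on the plus strand, and carry the matches in capitals.
Srxn1, chr2:152105274-152105515: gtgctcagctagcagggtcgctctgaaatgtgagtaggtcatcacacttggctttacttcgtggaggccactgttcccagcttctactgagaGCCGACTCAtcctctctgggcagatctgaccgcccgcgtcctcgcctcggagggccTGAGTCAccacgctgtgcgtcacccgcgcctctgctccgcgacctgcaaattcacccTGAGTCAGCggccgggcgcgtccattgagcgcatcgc
Prdx1, chr4:116685349-116685543: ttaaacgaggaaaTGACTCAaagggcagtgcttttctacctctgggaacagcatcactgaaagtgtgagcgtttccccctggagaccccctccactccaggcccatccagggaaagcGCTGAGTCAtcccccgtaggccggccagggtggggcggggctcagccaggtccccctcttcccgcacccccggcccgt

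Srxn1 held 2 AP-1 sites, from 102 and 45 bases before the RefSeq start, and the nearer one overlaps a TGAGNNNGC core on the plus strand. A further TGAGNNNGC core lies on the minus strand, 158 to 150 bases before the start. Prdx1 held AP-1 sites from 237 and 131 bases before its start, and the nearer one overlaps a TGACNNNGC core on the minus strand. Over 32851 windows of 250 bases, 10.2% held TGACNNNGC, 14.4% TGAGNNNGC and 6.75% TGANTCA. The genes share the AP-1 match and hold different forms of the core. These matches are descriptions of letters.

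**Figure D2:**
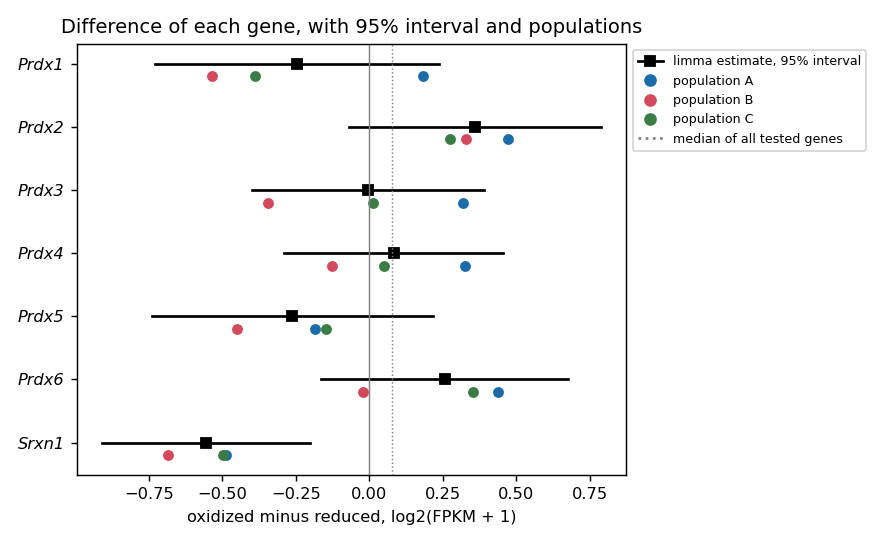
Log2(FPKM + 1) of oxidized minus that of reduced cells for each gene, with the limma estimate and its unadjusted 95% interval (squares and lines), the difference within each population (circles) and the median of all tested genes (dotted line). The interval of Srxn1, -0.91 to -0.20, lies below 0, and the intervals of the 6 peroxiredoxins include 0.

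Prdx1, the major cytosolic peroxiredoxin and also a chaperone when overoxidized (ENSMUSG00000028691, chr4:116685544-116700822), was the most abundant of the 7 per length in every library. It was at 585, 461 and 387 FPKM in the oxidized libraries of A, B and C, and at 516, 668 and 507 FPKM in their reduced libraries. The ranges overlapped, since oxidized A lay above reduced A and C. The means were 478 ± 100.3 FPKM in oxidized cells and 563 ± 90.4 FPKM in reduced cells (SD, n = 3 each), with a log2 difference of -0.25 (SE 0.21, 95% interval -0.73 to 0.24, adjusted p = 0.543 by limma). Within populations the difference was 0.18 in A, -0.53 in B and -0.39 in C. Among the 31-base stretches of its transcripts, 15.4% also occur in other genes, with the processed pseudogene Gm21399 holding the largest part. Gm21399 was at 14.9 FPKM in oxidized cells and 14.7 FPKM in reduced cells.

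Prdx2, the second cytosolic member and a major protein of red blood cells (ENSMUSG00000005161, chr8:84969587-84974834), was at 246, 204 and 269 FPKM in the oxidized libraries of A, B and C, and at 177, 162 and 222 FPKM in their reduced libraries. Oxidized B was below reduced C, so the groups overlapped. The means were 240 ± 33.3 FPKM in oxidized cells and 187 ± 31.5 FPKM in reduced cells (SD, n = 3 each), and the log2 difference was 0.36 (SE 0.19, 95% interval -0.07 to 0.79, adjusted p = 0.328 by limma). The differences within populations A, B and C were 0.47, 0.33 and 0.28, all positive. Population C held the highest Prdx2 of each group. The 7 primitive erythroid markers summed to 84.8, 66.9 and 628 FPKM in the oxidized libraries of A, B and C, and to 30.6, 71.6 and 642 FPKM in their reduced libraries. The sum was highest in population C of each group, as Prdx2 was, and 0 of the 7 markers were called (0.796% of all tested genes). In this fit the spread between populations enters the error, with an SE of 1.02 for Hbb-bh1 and 1.40 for Hba-x. The lack of calls therefore cannot tell if these markers differ between the groups. In the oxidized library the sum was higher in A, lower in B and close to the reduced one in C, and its part in the Prdx2 values was not tested. Of the 31-base stretches of Prdx2, 16.5% occur in other genes, among them Rnaseh2a and Junb, which overlap it on the opposite strand, and a pseudogene that GENCODE names Tdpx-ps1 and the deposited table Prdx2-ps1. The pseudogene was at 2.36 FPKM in oxidized cells and 1.52 FPKM in reduced cells.

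Prdx3, the mitochondrial 2-Cys enzyme (ENSMUSG00000024997, chr19:60864051-60874556), was at 75.1, 52.4 and 65.8 FPKM in the oxidized libraries of A, B and C, and at 60.0, 66.8 and 65.2 FPKM in their reduced libraries. The oxidized values lay on both sides of the reduced ones. Its log2 difference of -0.004 (SE 0.17, 95% interval -0.40 to 0.39, adjusted p = 0.992 by limma) was the smallest of the 7. The difference changed sign between populations, at 0.32 in A, -0.35 in B and 0.01 in C. The mitochondrially encoded mRNAs were high in oxidized A and B, and Prdx3 was the highest of the 6 libraries in the one and the lowest in the other. No 31-base stretch of Prdx3 or Prdx4 occurs in another gene.

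Prdx4, which reduces peroxide in the endoplasmic reticulum and passes the disulfide to protein disulfide isomerases (ENSMUSG00000025289, chrX:155323918-155340754), was at 110, 82.6 and 101 FPKM in the oxidized libraries of A, B and C. It was at 87.4, 90.3 and 97.7 FPKM in reduced A, B and C, inside the span of the oxidized values. The log2 difference was 0.08 (SE 0.16, 95% interval -0.29 to 0.46, adjusted p = 0.809 by limma), equal to the median of all tested genes at 2 decimals, and it turned to -0.01 with median-ratio scaling. Population differences were 0.33 in A, -0.13 in B and 0.05 in C.

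Prdx5 (ENSMUSG00000024953, chr19:6906697-6910106), whose resolving cysteine lies in the same chain, was the least abundant peroxiredoxin in every library. It was at 28.1, 18.1 and 28.5 FPKM in the oxidized libraries of A, B and C, and at 32.0, 25.0 and 31.8 FPKM in their reduced libraries. Population B was the lowest of both groups, and the groups overlapped. The log2 difference was -0.26 (SE 0.21, 95% interval -0.74 to 0.22, adjusted p = 0.511 by limma), with -0.18, -0.45 and -0.15 in A, B and C. Of its 31-base stretches 16.9% lie in Trmt112, a methyltransferase cofactor gene on the opposite strand. Trmt112 was at 45.4 FPKM in oxidized cells and 37.5 FPKM in reduced cells, a difference of the other sign, and its part in the Prdx5 values was not tested.

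Prdx6, which also has phospholipase activity (ENSMUSG00000026701, chr1:161240112-161251219), was at 218, 148 and 204 FPKM in the oxidized libraries of A, B and C, and at 161, 151 and 159 FPKM in their reduced libraries. Oxidized A and C were above all reduced libraries and oxidized B was below them. The log2 difference was 0.26 (SE 0.18, 95% interval -0.16 to 0.67, adjusted p = 0.465 by limma), with 0.44, -0.02 and 0.35 in A, B and C. The reduced libraries spread little, with an SD of 5.51 FPKM, against an SD of 36.8 FPKM in the oxidized ones.

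Across all tested genes, limma called 97 of 12191, or 0.796%, at an adjusted p under 0.05, and 2371 had an unadjusted p under 0.05. The called genes were 63 higher and 34 lower, against 58 and 50 with median-ratio scaling and 54 and 51 with quantile normalization. Of the 7 genes 0 were called and 1, Srxn1, had an unadjusted p under 0.05, which placed it at rank 610. The number called was 3, 4 and 1185 without oxidized A, B and C, 4, 3 and 64 without reduced A, B and C, and 4 with the population as a block. Without oxidized A and B together the difference was -0.53 for Prdx1, 0.54 for Prdx2, 0.37 for Prdx6 and -0.04 for Prdx5, with no call. The groups did not overlap for 1 of the 7 genes, on the lower side (8.81% of tested genes), and for 0 of 7 on the higher side (16.2%). The oxidized library was lower in all 3 populations for 2 of the 7 genes (16.4% of tested genes) and higher in all 3 for 1 of them (26.9%). Differences were positive for 3 of the 7 and for 59.3% of tested genes, and the median log2 difference was -0.004 for the 7 and 0.08 for all tested genes. Within populations A, B and C the median over all tested genes was 0.09, 0.14 and 0.0003, beside which the population differences above are to be read.

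The order of the peroxiredoxin levels per length was the same in the 6 libraries, with Prdx1 highest, then Prdx2, Prdx6, Prdx4, Prdx3 and Prdx5. Over the 6 libraries the ranges of neighbours in this order did not overlap except for Prdx2, at 162 to 269 FPKM, and Prdx6, at 148 to 218 FPKM. The 6 mRNAs summed to 1262, 966 and 1055 FPKM in the oxidized libraries of A, B and C, and to 1033, 1162 and 1083 FPKM in their reduced libraries. These sums overlapped, with means of 1094 ± 152 FPKM in oxidized cells and 1093 ± 65.2 FPKM in reduced cells (SD, n = 3 each). The share of Prdx1 was 43.6% ± 6.03 in oxidized and 51.4% ± 5.47 in reduced libraries, and that of Prdx2 was 22.0% ± 3.14 in oxidized and 17.2% ± 3.31 in reduced libraries. The FPKM ratio of Prdx2 to Prdx1 was 0.420, 0.442 and 0.697 in oxidized A, B and C, and 0.343, 0.243 and 0.439 in reduced A, B and C. It was higher in the oxidized library of each population, and the group ranges overlapped. Per 1000 FPKM of the 4 typical 2-Cys mRNAs there were 7.11, 9.68 and 10.2 FPKM of Srxn1 in oxidized A, B and C, and 12.5, 13.2 and 13.7 FPKM in reduced A, B and C. This ratio separated the groups as Srxn1 itself did, and it was not tested.

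**Figure D3:**
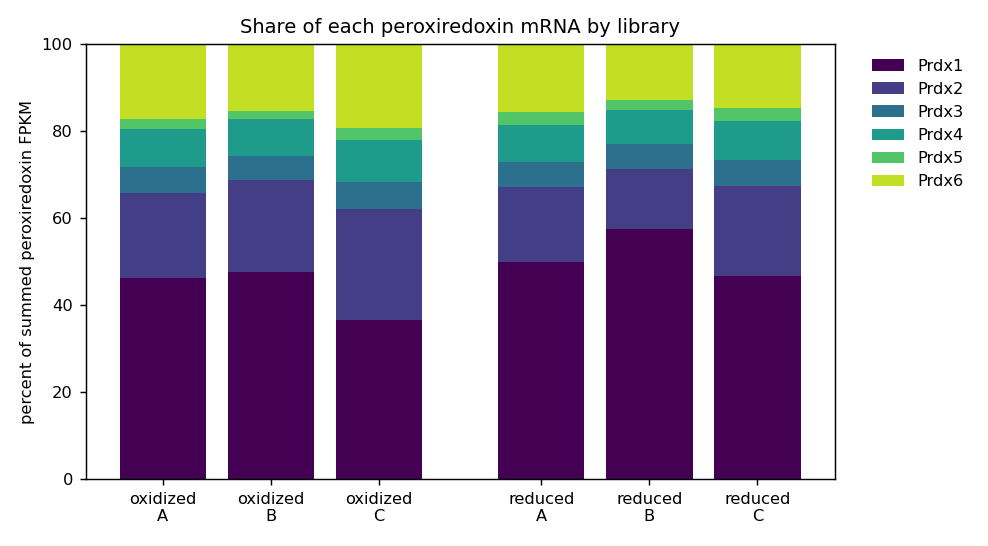
Share of each peroxiredoxin in the summed peroxiredoxin FPKM (vertical axis, percent, from 0 to 100) in the 3 oxidized and 3 reduced libraries. Prdx1 takes 36.6% to 47.7% of the sum in oxidized and 46.8% to 57.4% in reduced libraries.

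Marker levels moved with the groups as well. The 6 pluripotent cell markers summed to 1833, 1630 and 721 FPKM in the oxidized libraries of A, B and C. In their reduced libraries the sum was 2237, 2229 and 2043 FPKM, so all oxidized sums lay below the reduced ones, as for Srxn1. Within groups the orders differed. Among oxidized libraries the sum was highest in A and lowest in C, where Srxn1 was lowest and highest. Reduced A had the highest sum and the lowest Srxn1 of its group. Most of the sum is Dppa5a, at 978 ± 463 FPKM in oxidized cells and 1629 ± 63.9 FPKM in reduced cells (SD, n = 3 each). Of the 6 markers 0 were called, 5 had negative differences, and 3 (Pou5f1, Zfp42 and Dppa5a) were lower without overlap. Beside these and the following counts, 0.796% of all tested genes were called, 59.3% had positive differences and 8.81% were lower without overlap. Nanog had the other sign, with 44.3 FPKM in oxidized A, 49.0 in oxidized B and 11.5 in oxidized C, where reduced libraries spanned 18.2 to 27.2 FPKM (0.35, adjusted p = 0.707 by limma). Utf1 overlapped and was highest in oxidized B, at 261 FPKM. The visceral endoderm markers summed to 24.6 to 28.3 FPKM in oxidized and 8.80 to 14.4 FPKM in reduced libraries, and the fibroblast and mesenchyme markers to 36.3 to 80.5 FPKM in oxidized and 21.5 to 37.3 FPKM in reduced libraries, with Col3a1 the 1 called gene of 5 (adjusted p = 0.0380 by limma, and 0.0613 with the population as a block). Neuroectoderm markers summed to 16.2 to 31.4 FPKM in oxidized and 7.38 to 10.4 FPKM in reduced libraries, with 0 of 3 tested genes called. Most of this sum is Irx3, Cdh2 and Nes. Sox1 and Pax6 averaged 0.416 and 0.225 FPKM, were not tested, and overlapped between groups. Pax6 in oxidized C, at 0.0815 FPKM, was below every reduced library. Of the 5 streak and early mesoderm markers 4 had negative differences, with a median of -0.56. Hand1 had the 1 positive difference, at 156 ± 30.6 FPKM in oxidized cells and 80.8 ± 17.4 FPKM in reduced cells, and it set the summed level of 139 to 207 FPKM in oxidized and 96.8 to 129 FPKM in reduced libraries. The streak gene T was the 1 called marker of that list and was lower in oxidized cells (adjusted p = 0.0158 by limma, and 0.0601 with the block). The part of these cell types in the Srxn1 difference was not tested.

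**Figure D4:**
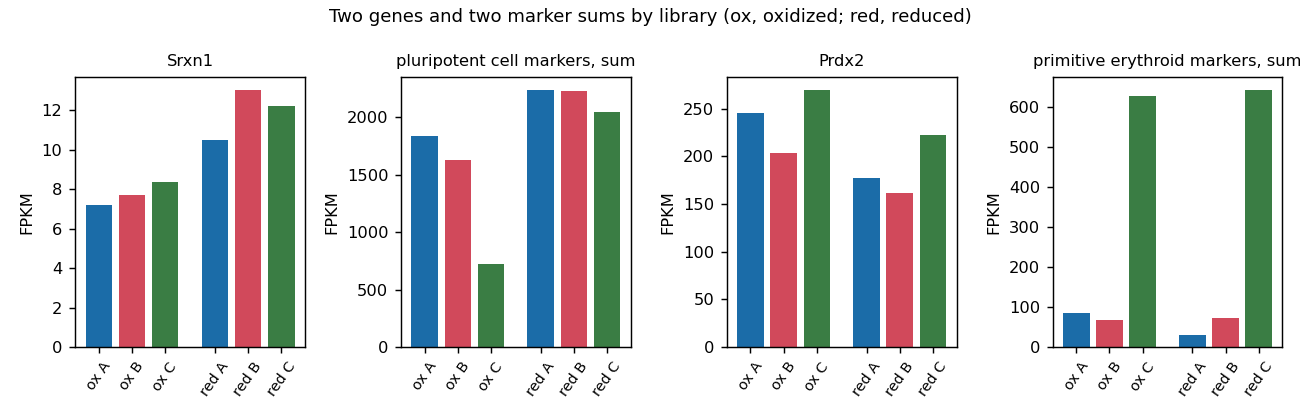
FPKM of Srxn1 and Prdx2 beside the summed FPKM of 6 pluripotent cell markers and 7 primitive erythroid markers (vertical axes, linear, from 0), with the 3 oxidized libraries left of the 3 reduced ones and colours for populations. Srxn1 and the pluripotent sum, most of it Dppa5a, are lower in all oxidized libraries, and Prdx2 and the erythroid sum are highest in population C of each group. Among the oxidized libraries Srxn1 is highest and the pluripotent sum lowest in C.

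Thioredoxin and its reductases, which recycle the 2-Cys enzymes, and the glutaredoxins had 0 of 11 genes called (0.796% of all tested genes). Thioredoxin (Txn1), the most abundant, was at 370 ± 92.7 FPKM in oxidized cells and 279 ± 29.1 FPKM in reduced cells (log2 difference 0.38, adjusted p = 0.345 by limma). Its differences in populations A, B and C were 0.91, 0.32 and -0.08. Glutaredoxin (Glrx), which reduces glutathione-bound thiols, was at 4.54 ± 1.33 FPKM in oxidized cells and 7.16 ± 1.01 FPKM in reduced cells, with groups that did not overlap (-0.58, adjusted p = 0.194). Glrx3, which carries iron-sulfur clusters, also had lower values without overlap (-0.33, adjusted p = 0.302). The list had a median of 0.05.

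In the endoplasmic reticulum list around Prdx4, 0 of 11 tested genes were called and 9 had positive differences, with a median of 0.30. Of all tested genes 0.796% were called and 59.3% had positive differences. The isomerase P4hb, the most abundant, was at 222 ± 21.3 FPKM in oxidized cells and 192 ± 13.3 FPKM in reduced cells (0.21, adjusted p = 0.492 by limma). The lumenal peroxidase genes Gpx8 and Gpx7 had the smallest p-values, with differences of 0.82 (adjusted p = 0.151) and 0.71 (0.207). Gpx8 was at 28.5 ± 8.72 FPKM in oxidized cells and 15.7 ± 4.29 FPKM in reduced cells. Gpx7 differed by 0.71, 1.26 and 0.15 in populations A, B and C. Prdx4 was near the median of all genes while these named neighbours, none of them called, had larger positive differences. The interval of P4hb, -0.15 to 0.57, overlaps that of Prdx4, -0.29 to 0.46. Ero1l and Erp44 of the list had negative differences, at -0.21 and -0.06.

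Of the other peroxide and superoxide enzymes 0 of 6 tested genes were called (0.796% of all tested genes), with a median of 0.38. Catalase (Cat), the peroxisomal enzyme, was at 43.2 ± 15.7 FPKM in oxidized cells and 24.8 ± 1.87 FPKM in reduced cells (0.71, adjusted p = 0.209 by limma). It was at 52.2 FPKM in oxidized A and in oxidized B, the libraries that stood apart. Oxidized C, at 25.1 FPKM, lay inside the reduced range of 22.6 to 26.1 FPKM. The secreted peroxidase gene Gpx3 differed by 0.62 (adjusted p = 0.224). Gpx4, which reduces lipid peroxides and was the most abundant, differed by -0.07 (adjusted p = 0.852).

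The NRF2 and AP-1 list around Srxn1 had 0 of 13 tested genes called (0.796% of all tested genes), with a median of -0.12. It had 8 negative and 5 positive differences, where 59.3% of all tested genes had positive ones. Jun, an AP-1 subunit, was at 60.5 ± 14.9 FPKM in oxidized cells and 30.9 ± 7.32 FPKM in reduced cells, with groups that did not overlap (0.94, adjusted p = 0.102 by limma), the opposite sign to Srxn1. Glucose-6-phosphate dehydrogenase (G6pdx), which makes NADPH, differed by 2.18, 1.89 and -0.23 in populations A, B and C (1.28 in all, adjusted p = 0.217), with the large values in the 2 oxidized libraries that stood apart. Glutathione reductase (Gsr), the most abundant, was at 65.4 ± 15.0 FPKM in oxidized cells and 85.6 ± 18.6 FPKM in reduced cells (-0.39, adjusted p = 0.372). Haem oxygenase (Hmox1), a classic NRF2 target chosen here after its values were seen, was at 64.8 ± 10.2 FPKM in oxidized cells and 84.1 ± 3.88 FPKM in reduced cells, lower without overlap (-0.38, adjusted p = 0.248). NRF2 itself (Nfe2l2) differed by -0.14, also named after its value was seen. Keap1, Slc7a11 and Atf3 of the same list had the other sign, at 0.40, 0.50 and 0.22, and were likewise named afterwards. Slc7a11 was low, at 1.35 FPKM in oxidized cells and 0.696 FPKM in reduced cells.

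Sestrins, which have been linked to peroxiredoxin recycling, and Gstp1, the glutathione transferase that reactivates Prdx6, had 0 of 5 genes called and 5 positive differences, with a median of 0.38. Over all tested genes 0.796% were called and 59.3% had positive differences. Gstp1 was at 73.2 ± 10.4 FPKM in oxidized cells and 57.0 ± 14.6 FPKM in reduced cells (0.38, adjusted p = 0.371 by limma). Sesn1 and Gstp2 differed by 0.31 (adjusted p = 0.366) and 0.62 (0.363).

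**Figure D5:**
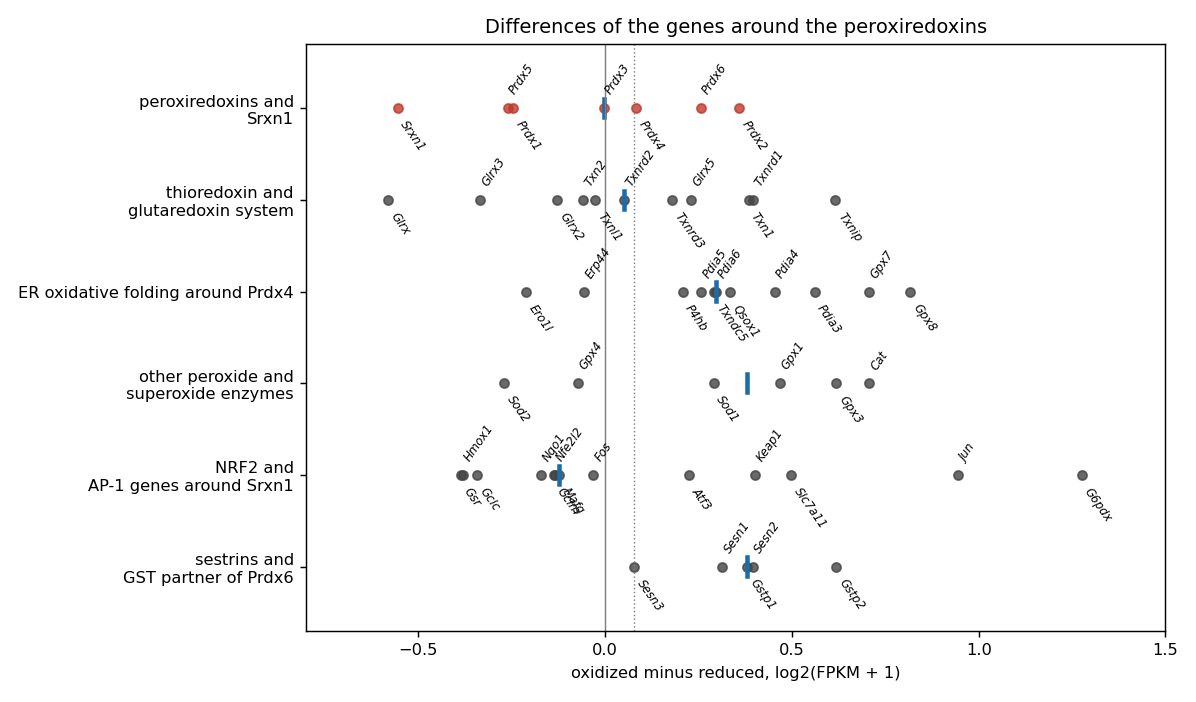
Log2(FPKM + 1) of oxidized minus that of reduced cells (horizontal axis) for the 7 genes (red) and the tested genes of 5 lists around them (grey), with the median of each list (blue bar), 0 (solid line) and the median of all tested genes (dotted line). Srxn1, at -0.56, has the lowest value of its row and lies beside Glrx at -0.58, and none of the genes shown was called.

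The genes whose profile over the 6 libraries was most like each of the 7 were found among 6509 others that averaged 5 FPKM or more and whose symbol is no Gm or Rik name. Likeness was the root mean square distance between log2(FPKM + 1) profiles, each centred on its own mean. For Srxn1 these were Mphosph8 (0.0552), a chromatin silencing factor at 18.3 FPKM in oxidized cells and 27.9 FPKM in reduced cells, and Dnttip2 (0.0865). For Prdx1 they were Ccdc47 (0.0333) and Arl6ip1 (0.0345), both endoplasmic reticulum membrane proteins, and for Prdx2 they were Bex2 (0.0273) and Rbms1 (0.0483). Prdx3 was nearest to Mrps14 (0.0482), a mitochondrial ribosomal protein, and Cdkn3 (0.0511), and Prdx4 to Cops4 (0.0282). Prdx5 was nearest to Mogat2 (0.0752) and Zbtb8os (0.0826), and Prdx6 to Polr2h (0.0601) and Tmem107 (0.0688). Within the family the closest pair was Prdx3 and Prdx4 (0.0687) and the farthest Prdx2 and Srxn1 (0.498).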

How the data were processed

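Poly(A) RNA was sequenced as stranded paired-end libraries, per the labels' protocols. The mm10 build and the tools HISAT2, StringTie, edgeR, cutadapt and FastQC come from the submitters' processing notes. No label or header states if strand was used in counting. The authors deposited FPKM values for 3 oxidized and 3 reduced libraries. The authors' deposited fold is the ratio of mean FPKM, oxidized over reduced, and the deposited log2 column is its log2. The deposited p-values and q-values come from the authors' own test.

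FPKM values are not counts, and low values fell on whole-fragment steps within 2% for only 34.8% to 36.8% of values, so reads were not recovered and depth is an estimate. The tolerance widens with the step, so this share does not show that the depths are right. Fragment numbers drawn from them are rough. log2(FPKM + 1) of the 12191 genes averaging 1 FPKM or more was fitted with limma 3.58.1 in R 4.3.3 (group alone, eBayes with a trend, two-sided) and adjusted by Benjamini-Hochberg over all of them. Differences are oxidized minus reduced, and this scale understates changes of low genes. The fit was tested on simulated data. Intervals are at 95% and are for the difference of group means. They rest on the spread between libraries, which limma draws towards that of all genes. Positions, overlaps and shared 31-base stretches come from GENCODE vM21 on mm10 and promoters from RefSeq.

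Population letters pair the libraries, per the series' design text. Deviations from group means correlated within a letter at r = -0.06, 0.07 and 0.20 for A, B and C. The largest correlation of each oxidized library with a reduced library of another letter was 0.13, 0.12 and -0.05. Only for C was the value within the letter the higher one. The members and gene lists were chosen with earlier results of these data known. Named list genes are those called, the 2 with the smallest p and the most abundant, and some others were added after their values were seen. For each member the 2 genes nearest in profile are named, except a gene that is not reported here.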

Additional observations from a re-analysis of the deposited data

How the results depend on the processing

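None of the 7 genes was called in any of 14 alternative fits over all genes, each read for the 7, which gave 98 results. Srxn1 kept its sign in all 14, from -0.66 to -0.46. Where each group kept more than 1 library, its adjusted p-values by limma ran from 0.0611 (without oxidized C) to 0.339 (without reduced B). The trend, the filters and the block cannot change an estimate here, so those fits bear on the p-value alone. As the Srxn1 groups did not overlap, leaving out libraries could not reverse its sign. Prdx1, Prdx2, Prdx5 and Prdx6 also kept their signs, over -0.53 to -0.11, 0.25 to 0.54, -0.37 to -0.04 and 0.15 to 0.42. Prdx3 and Prdx4, which lie near 0, changed sign in 6 fits. Prdx3 was at 0.042 without oxidized A and B together and ranged from -0.12 to 0.14 without 1 library, and Prdx4 was at -0.011 with median-ratio scaling and ranged from -0.0048 to 0.20 without 1 library. The number of genes called, 97, was 4 with no filter on low values, 4 with the population as a replicate block, 4 without oxidized A and B together, and 3 to 1185 without 1 library. In the replicate block fit Srxn1 had an adjusted p of 0.165, and the block changed the call of none of the 7 genes. The causes were not tested.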

Other observations

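The table also holds 3 peroxiredoxin-like genes, Prxl2a, Prxl2b and Prxl2c, which were looked up after the values of the peroxiredoxins were seen. Prxl2a was at 6.32 ± 1.87 FPKM in oxidized cells and 8.42 ± 1.87 FPKM in reduced cells (SD, n = 3 each), and it was lower in the oxidized library of A, B and C by log2 differences of -0.21, -0.40 and -0.52 (adjusted p = 0.415 by limma). Prxl2b differed by 0.10 and Prxl2c by -0.05, with adjusted p-values of 0.813 and 0.907.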
